A study of Mus musculus with 12 samples.

Results

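Parm1, Foxp2, Gm40304 and Il4i1 are 4 of the 32285 genes counted in mouse cells that release antibody (antibody-secreting cells, or ASCs), taken from the bone marrow, the spleen and the thymus. They were chosen from earlier tissue contrasts of these same data, spleen against bone marrow for Parm1, Foxp2 and Gm40304, and thymus against the other tissues for Il4i1. Their tissue levels are therefore given as a description, without a test, and only sex, cell cycle state and antibody class are tested. The name bone marrow enriched held against spleen for 3 of the genes. Il4i1 went against it, with spleen levels that overlapped those of bone marrow, and so did Parm1 in thymus, where its level was as high as in bone marrow in females.

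Prdm1-eYFP reporter mice on a C57BL/6 background, 3 months old, gave the cells. Their yellow fluorescent reporter reads out Prdm1, the gene for the ASC regulator Blimp-1, and all groups carry it. The sort took cells that were CD138HI and Prdm1-eYFP+ but IgD- and CD90.2-, whether B220+ or B220-, from pools of 3 mice of 1 sex. The labels name no treatment, and each sex and tissue gave 1 gene expression library of the 10x Genomics 5′ v1.1 kit. The comparison therefore holds 6 libraries: female and male bone marrow, female and male spleen, and female and male thymus. A cell was counted here when it held at least 1000 unique molecular identifiers (UMIs, each standing for 1 captured RNA molecule) outside immunoglobulin genes and when 1 light-chain V gene made up at least 50% of its light-chain V UMIs, as in a cell with 1 antibody. That left 8715 of 39949 barcodes in the deposited cell lists, namely 1238 cells from female and 1665 from male bone marrow, 3567 and 1850 from the spleens and 107 and 288 from the thymuses. Below, pairs of values give the female library first.

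Parm1 encodes a membrane protein with a mucin-like outer part that was first described as an androgen-regulated gene of the prostate. Foxp2 is a forkhead transcription factor best known from brain circuits for vocal learning, in the same family as Foxp1, which acts in B cell development. Il4i1 encodes a secreted enzyme that oxidises phenylalanine and tryptophan, was found as a gene that interleukin-4 induces in B cells, and gives products that can activate the aryl hydrocarbon receptor. Gm40304 is a noncoding RNA with no described role that is named here only by its gene model.

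Parm1 (ENSMUSG00000034981) lies on the plus strand at chr5:91517615-91626894 of GRCm38 in the GENCODE vM21 annotation, and Foxp2 (ENSMUSG00000029563) at chr6:14901349-15441977 on the plus strand. Gm40304 (ENSMUSG00000107111), at chr5:53546351-53547322 on the minus strand, lies whole inside the gene Rbpj on the opposite strand, the DNA-binding partner of Notch. Il4i1 (ENSMUSG00000074141), at chr7:44816387-44840809 on the plus strand, shares 14426 bases with Nup62 on the same strand and 6187 bases with Tbc1d17 on the opposite strand. How reads of overlapping genes were shared out is not given in the sources used here, so the counts of Gm40304 and Il4i1 carry that uncertainty. Gm40304 is a short spliced RNA of 268 bases in 3 exons of 55, 105 and 108 bases, shown because it has no protein and its sequence is all that identifies it. Exon 2 is in capitals:

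Gm40304: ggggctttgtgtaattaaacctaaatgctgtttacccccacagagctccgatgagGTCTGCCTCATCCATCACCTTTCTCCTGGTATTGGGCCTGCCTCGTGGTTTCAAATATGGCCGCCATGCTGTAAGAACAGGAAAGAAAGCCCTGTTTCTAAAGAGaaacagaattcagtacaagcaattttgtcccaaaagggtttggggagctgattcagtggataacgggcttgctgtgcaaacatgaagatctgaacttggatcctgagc

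RefSeq promoter windows of 300 bases (GRCm38.p6) were matched for 2 of the 4 genes, Parm1 and Il4i1. The Il4i1 window, at chr7:44836038-44836337, lies inside the gene span given above and inside that of Tbc1d17. It does not cover the annotated start of Il4i1, which has 6 annotated transcripts. Neither window held, on either strand, TGACTCA (the AP-1 site), TGTTTAC (a forkhead site) or CACGTG (an E-box, which is its own reverse complement), which 5.2%, 3.65% and 7.15% of 32851 such windows held. An interferon-stimulated response element and an ETS-IRF composite site, each searched as 1 fixed form, were in neither window and in 3.44% and 0.225% of all. The 165 bases before the annotated start of Parm1, which was called lower in IgA than in both IgM and IgG cells, lie at chr5:91517450-91517614 on the plus strand, had 60.6% G and C, and hold no capitals because no motif was found:

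Parm1 upstream: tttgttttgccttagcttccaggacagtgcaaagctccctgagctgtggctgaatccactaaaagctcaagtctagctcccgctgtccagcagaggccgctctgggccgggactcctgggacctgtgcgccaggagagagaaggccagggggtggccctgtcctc

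The libraries differed in depth and in the other cells they held. The counted cells summed to 264621 UMIs outside immunoglobulin genes in female thymus and up to 21287170 in female spleen, with medians of 2035 to 4352 per cell. All 8 ASC markers were detected in every library. Levels are in CPM, the UMIs of a gene scaled by all UMIs of the library outside immunoglobulin genes, with exact Poisson 95% intervals that cover counting error only. Summed neutrophil markers reached 409.5 and 1413 CPM in bone marrow, with 7 of 7 detected, against 0.14 and 0.13 CPM in spleen (2 and 1 of 7 detected) and 0 in thymus, where all 7 were at 0. The levels of the members in neutrophil-like barcodes are given below. B cell markers lay at 150 to 229, T cell markers at 6.31 to 68.0 and macrophage markers at 11.4 to 33.1, with dendritic cell markers at 684 to 1254 and erythroid markers at 0 to 24.5. All 7 dendritic cell markers were detected in female spleen alone. Flt3, Zbtb46 and Ccr7 were at 0 in female thymus, and Siglech and Itgax in male thymus and male bone marrow. The dendritic sum therefore does not by itself measure dendritic cells. IgM cells made up 67.3% to 92.3% of the counted cells. Between pairs of libraries, 24 to 247 barcodes were shared in the cell lists and 0 to 11 among the counted cells.

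Parm1 stood higher in bone marrow and thymus than in spleen. Bone marrow held 33.8 CPM (29.2 to 38.9, 192 UMIs) in females and 27.6 CPM (24.3 to 31.1, 256 UMIs) in males, and spleen held 7.33 CPM (6.22 to 8.57, 156 UMIs) and 8.20 CPM (6.33 to 10.5, 65 UMIs). Both bone marrow libraries lay above both spleen libraries, and the ratio of bone marrow to spleen was 4.61 in females (3.71 to 5.73) and 3.36 in males (2.55 to 4.48). In thymus the level was 52.9 CPM (28.9 to 88.8) from 14 UMIs in females and 17.7 CPM (10.9 to 27.0) from 21 UMIs in males, so the thymus libraries lay on either side of those of bone marrow. With edgeR's fit over the 6 libraries, the log2 difference was -1.97 (SE 0.27) for spleen minus bone marrow and -0.38 (SE 0.36) for thymus minus bone marrow, which turned to 0.29 without the male thymus library. In sums over cells, fewer cells with the transcript and fewer transcripts per cell cannot be told apart.

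Foxp2 was lowest in spleen, and there most of all in females. Bone marrow held 13.7 CPM (10.9 to 17.1, 78 UMIs) in females and 18.7 CPM (16.1 to 21.7, 174 UMIs) in males, and spleen held 1.97 CPM (1.42 to 2.67) and 6.44 CPM (4.79 to 8.46). The ratio of bone marrow to spleen was 6.95 (4.72 to 10.4) in females and 2.91 (2.12 to 4.06) in males, and the fitted log2 difference of spleen minus bone marrow was -2.12 (SE 0.31). Female spleen was the lowest library, and without it the difference was -1.61. Thymus gave 15.1 CPM (4.12 to 38.7) from 4 UMIs in females and 8.41 CPM (4.03 to 15.5) from 10 UMIs in males. The female interval took in that of female bone marrow and lay above that of female spleen. The male interval took in that of male spleen and lay below that of male bone marrow.

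Gm40304 followed the order of Foxp2 in bone marrow and spleen. It was found at 15.5 CPM (12.4 to 19.1, 88 UMIs) and 20.4 CPM (17.6 to 23.6, 190 UMIs) in female and male bone marrow and at 5.03 CPM (4.12 to 6.07) and 7.07 CPM (5.34 to 9.18) in spleen. Bone marrow to spleen ratios were alike in the sexes, 3.08 (2.3 to 4.12) and 2.89 (2.14 to 3.97), and the fitted log2 difference of spleen minus bone marrow was -1.55 (SE 0.27). In thymus a single UMI gave 3.78 CPM in females and 17 UMIs gave 14.3 CPM (8.33 to 22.9) in males. Rbpj, on the opposite strand, had 60.5 and 32.8 CPM in thymus, 31.3 and 26.3 CPM in bone marrow and, in spleen, 17.4 and 29.9 CPM, an order that differed from that of Gm40304.

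Of the 4 members Il4i1 differed least between bone marrow and spleen, where its libraries overlapped. Its level was 15.5 CPM (12.4 to 19.1, 88 UMIs) and 18.9 CPM (16.3 to 22.0, 176 UMIs) in bone marrow and 10.1 CPM (8.79 to 11.5, 215 UMIs) and 16.0 CPM (13.4 to 19.1, 127 UMIs) in spleen, so male spleen lay above female bone marrow. The ratio of bone marrow to spleen was 1.53 (1.18 to 1.97) in females and 1.18 (0.94 to 1.497) in males. By cell cycle state, as defined below, the male ratio was 6.86 (3.37 to 15.8) in cycling and 0.72 (0.55 to 0.94) in non-cycling cells. The female ratios were 0.46 (0.12 to 1.27) and 1.44 (1.096 to 1.88). The non-cycling ratios rest on few cells, 1 of which held 72 of the 118 UMIs in male spleen. Without cells of at least 10 Il4i1 UMIs, non-cycling bone marrow was at 5.40 and 10.9 CPM, against 6.11 and 8.03 CPM in spleen. The order of tissues thus turned in both sexes, with intervals that overlapped. The fitted log2 difference of spleen minus bone marrow was -0.41 (SE 0.26). In thymus 0 UMIs were counted, in 0 of 107 female cells, which allows a share of cells with a UMI of up to 2.80%, and in 0 of 288 male cells, which allows up to 1.04%. These limits hold at medians of 2035 and 2797.5 UMIs per cell and do not bound the share of cells that express the gene. Set against 3 counts per thymus library, the counted level of bone marrow was 1.37-fold higher in females and 7.51-fold higher in males. With counting error in both tissues, the lower bounds of the ratio were 1.09 and 6.04. The female bound rests on 1 cell with 65 of the 88 UMIs: without cells of at least 10 Il4i1 UMIs, female bone marrow was at 4.05 CPM, under the 11.3 CPM that 3 counts make in female thymus, so no bound remained. In males 9.40 CPM stood against 2.52 CPM. Nup62, the same-strand neighbour, was detected in both thymus libraries at 11.3 and 29.4 CPM.

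**Figure D1:**
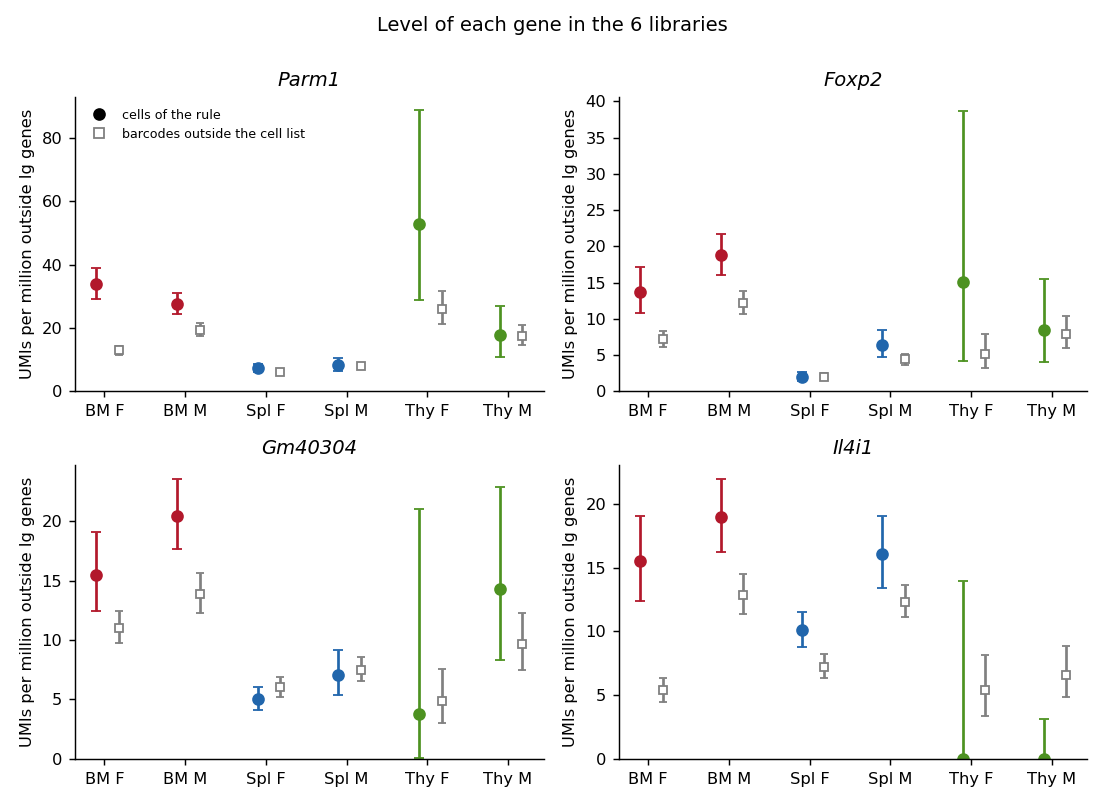
Level of each gene in CPM outside immunoglobulin genes (vertical axes, linear, from 0) in bone marrow (BM), spleen (Spl) and thymus (Thy) of females (F) and males (M), 1 library each. Filled points are the counted cells, open squares the barcodes outside the cell list, and bars exact Poisson 95% intervals. Parm1 stands at 33.8 and 27.6 in bone marrow against 7.33 and 8.20 in spleen, and Il4i1 is at 0 in both thymus libraries.

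Ordered by tissue means (SD over the libraries, n = 2 each), Parm1 was at 35.3 ± 24.9 CPM in thymus, 30.7 ± 4.40 in bone marrow and 7.77 ± 0.62 in spleen. Foxp2 was at 16.2 ± 3.54 CPM in bone marrow, 11.8 ± 4.74 in thymus and 4.20 ± 3.16 in spleen. Gm40304 was at 17.96 ± 3.51, 9.04 ± 7.44 and 6.05 ± 1.44 CPM in that order of tissues, and Il4i1 at 17.2 ± 2.45 CPM in bone marrow, 13.1 ± 4.19 in spleen and 0 in thymus. Neighbours whose libraries overlapped were thymus and bone marrow for Parm1 and Foxp2, thymus and spleen for Gm40304, and bone marrow and spleen for Il4i1. Among all 11239 genes tested by edgeR, 0.436% passed an adjusted p of 0.05 between spleen and bone marrow, 0.765% between thymus and bone marrow and 0.632% between thymus and spleen. Since the members were chosen on these contrasts, nothing is read from their place among those genes.

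The spleen differences were of like size within 1 antibody class. In IgM cells without a UMI of the proliferation genes Mki67 or Top2a, called non-cycling here, the log2 difference of spleen minus bone marrow was -1.96 (SE 0.30) for Parm1, -1.99 (SE 0.34) for Foxp2, -1.70 (SE 0.31) for Gm40304 and -0.56 (SE 0.29) for Il4i1. In females IgG cells gave Parm1 no clear order of tissues, with 16.3 CPM from 4 UMIs in bone marrow and 18.1 CPM from 34 UMIs in spleen. In males bone marrow was at 41.9 CPM from 7 UMIs and spleen at 14.7 CPM from 6 UMIs, with intervals (16.8 to 86.3 and 5.39 to 32.0) that overlap. IgG cells made up 19.7% of female spleen cells and 9.94% of female bone marrow cells.

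Barcodes outside the cell lists held all 4 transcripts. They were summed without an upper limit on UMIs, so RNA free of cells and cells that were not called cannot be told apart. Their profile is called free RNA below, where it was subtracted as an alternative. In barcodes outside the cell lists, Parm1 was at 26.1 and 17.6 CPM in thymus, 12.9 and 19.5 CPM in bone marrow and, lowest, 6.2 and 7.84 CPM in spleen. Counted cells stood above that level 2.61-fold (2.17 to 3.13) in female and 1.41-fold (1.20 to 1.66) in male bone marrow, but only 1.18-fold (0.96 to 1.46) and 1.05-fold (0.78 to 1.38) in spleen. These spleen intervals include equal levels, as did that of male thymus (1.003, 0.60 to 1.60). The same held for Gm40304 in spleen, with spleen ratios of 0.83 (0.65 to 1.06) and 0.94 (0.69 to 1.26), and for Foxp2 in female spleen (0.99, 0.66 to 1.47). Foxp2 in male spleen stood 1.47-fold (1.04 to 2.04) above it. Il4i1 exceeded it in all 4 bone marrow and spleen libraries, by 1.3-fold to 2.88-fold, but not without the 13 cells described below, which left 4.05 and 9.40 CPM in bone marrow and 5.03 and 5.31 CPM in spleen against 5.37, 12.8, 7.24 and 12.3 CPM outside the cell lists. High cells were left out on the counted side only, which could only lower these ratios, so nothing is read from the levels without them. In thymus, where no counted cell held Il4i1, barcodes outside the cell lists held 5.37 and 6.60 CPM. Listed female thymus barcodes of at least 1000 UMIs that failed the light-chain share, 124 in number, held 0. In males such barcodes held 13.3 CPM, with a UMI in 1.96% of 204. The 0 of counted male thymus cells thus holds only for cells past that share.

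Barcodes of other cell types gave a second background. Neutrophil-like barcodes, those with at least 3 neutrophil markers that failed the light-chain rule, had a median of 2839 UMIs, close to the 2797.5 of female bone marrow ASCs. Parm1 had a UMI in 1 of 76 of them (1.32%, exact Clopper-Pearson 0.03% to 7.11%), below the 10.3% and 11.5% of bone marrow ASCs. Foxp2 was in 0 of 76, which allows up to 3.95%, with an exact upper bound of 4.74% that holds the 4.68% of female but not the 7.51% of male bone marrow ASCs. Gm40304 was in 2 of 76 (2.63%, 0.32% to 9.18%), an interval that holds the 6.38% and 8.95% of bone marrow ASCs. Il4i1 was in 0 of 76, and its shares in bone marrow ASCs, 1.37% and 2.40%, lie under that limit. Spleen ASCs held Parm1 in 3.25% and 2.81% of cells at medians of 4352 and 3372 UMIs, against 1.81% (0.37% to 5.19%) of 166 B-cell-like barcodes with a median of 3012.5 UMIs, so the spleen shares lay inside that interval. With each cell thinned to 1000 UMIs the shares for Parm1 were 3.74% and 1.39% in thymus, 3.07% and 2.46% in bone marrow and 0.81% and 0.65% in spleen, which kept bone marrow above spleen. All listed barcodes of at least 1000 UMIs that failed the light-chain rule, of any type, held Foxp2 at 15.9 and 23.9 CPM in bone marrow. In spleen they held 3.77 and 8.86 CPM and in thymus 10.1 and 8.87 CPM. Counted cells stood lower in bone marrow and spleen, at 13.7 and 18.7 and at 1.97 and 6.44 CPM. In thymus counted cells were at 15.1 and 8.41 CPM.

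Il4i1 differed from the other members in barcodes of other cell types. B-cell-like barcodes held 95.7 CPM (75.8 to 119) of Il4i1, with a UMI in 15.7% (10.5% to 22.1%) of 166, whereas no library of counted ASCs, summed whole, exceeded 18.9 CPM. Macrophage-like barcodes reached 456 CPM, but 3 of 81 held all 77 UMIs, and dendritic-like barcodes had 25.3 CPM (9.27 to 55.0) from 6 UMIs in 3 of 43. Parm1, Foxp2 and Gm40304 were at 4.85, 1.21 and 2.42 CPM in the B-cell-like barcodes.

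Within ASCs, Il4i1 was concentrated in very few cells. Of its 606 UMIs in all libraries, 347 came from 13 cells with at least 10 each, 12 of them IgM and 1 IgG, and the highest cell held 72. A single cell gave 73.9% of the Il4i1 UMIs of female bone marrow and another 56.7% of those of male spleen. Without these 13 cells the level was 4.05 and 9.40 CPM in bone marrow and 5.03 and 5.31 CPM in spleen, so female bone marrow became the lowest of those 4 libraries. The 13 cells carried 10 different leading light-chain V genes, 10 were non-cycling, and 12 held at least 3 ASC markers. Cycling cells were 23.1% of the 13 and 37.8% of the cells without Il4i1. Of the 13, 4 (30.8%) had a leading light-chain share under 60%, near the threshold of the rule, against 22.0% of the cells without Il4i1. The female bone marrow cell with 65 UMIs had summed ASC markers at 23336 CPM, against 99818 CPM in the cells of that library without Il4i1, while the high cells of the other 3 libraries had 108158 to 186763 CPM. None held 3 markers of B cells, macrophages or dendritic cells, and the summed B cell markers were at 149 CPM, against 157 CPM in cells without Il4i1. The 140 cells with 1 to 9 Il4i1 UMIs had more, with B cell markers at 218 CPM, macrophage markers at 59.0 CPM and dendritic cell markers at 1318 CPM. Cells without Il4i1 had 157, 24.7 and 1045 CPM. Of the 140, 5, 3 and 4 (3.57%, 2.14% and 2.86%) held 3 markers of those types, against 1.93%, 0.25% and 1.54% of cells without Il4i1. The 140 were deeper, with a median of 4701 UMIs against 3557. The part of other cells in the Il4i1 of the 140 cells was not tested.

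Parm1, Foxp2 and Gm40304 were spread over many cells. No cell held more than 7 UMIs of Parm1, 8 of Foxp2 or 4 of Gm40304. In female bone marrow, for example, 128 cells shared the 192 UMIs of Parm1 and 92 of them held a single UMI.

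**Figure D2:**
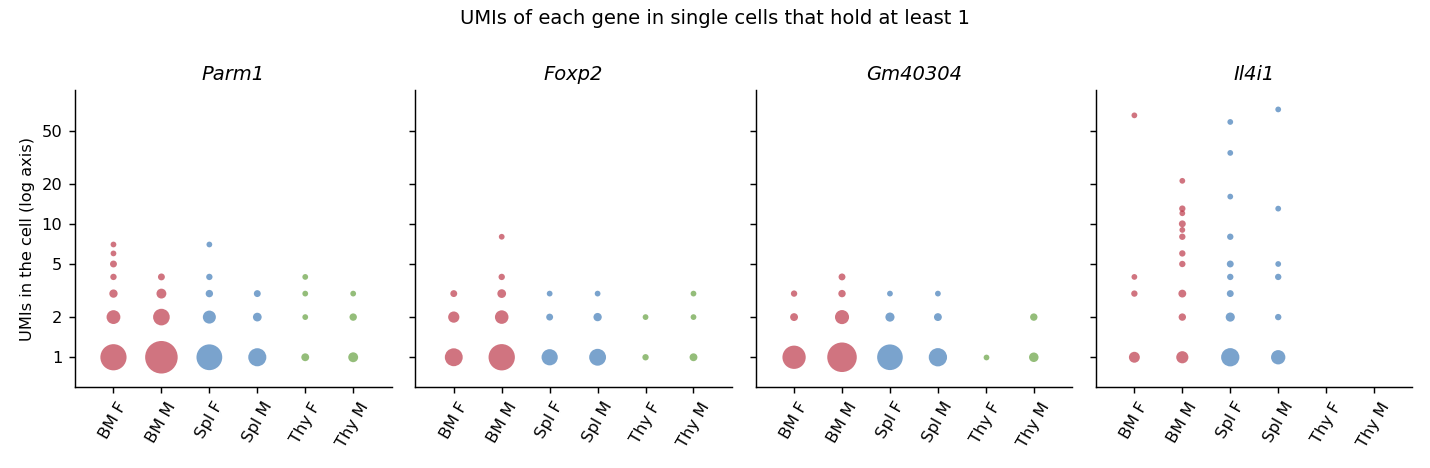
UMIs of each gene in single cells that hold at least 1 (vertical axis, log scale) in the 6 libraries, with abbreviations as in the plot of levels by library. The area of a point grows with the number of cells at that value. Cells with Parm1, Foxp2 or Gm40304 hold 1 to 8 UMIs, while Il4i1 reaches 72 in 1 male spleen cell.

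The members also differed in how their level moved with the UMIs of a cell, read in 4 ranges that start at 1000, 2000, 4000 and 8000 UMIs. Foxp2 in bone marrow was at 26.4 and 33.8 CPM in the lower ranges, then at 21.7 and, in the 663 cells of the highest, 6.42 CPM. Gm40304 ran the other way, from 6.59 and 8.80 CPM to 19.6 and 23.7 CPM. Parm1 was level in bone marrow, at 29.3 to 35.6 CPM, all above the 4.31 to 11.4 CPM of spleen. Malat1, a noncoding RNA that stays in the nucleus, fell with depth like Foxp2, from 90466 to 10627 CPM in bone marrow. The part of cell depth or RNA quality in the level of Foxp2 was not tested. Bone marrow stayed above spleen for Parm1, Foxp2 and Gm40304 in each depth range, though for Gm40304 the intervals overlapped in cells under 4000 UMIs.

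**Figure D3:**
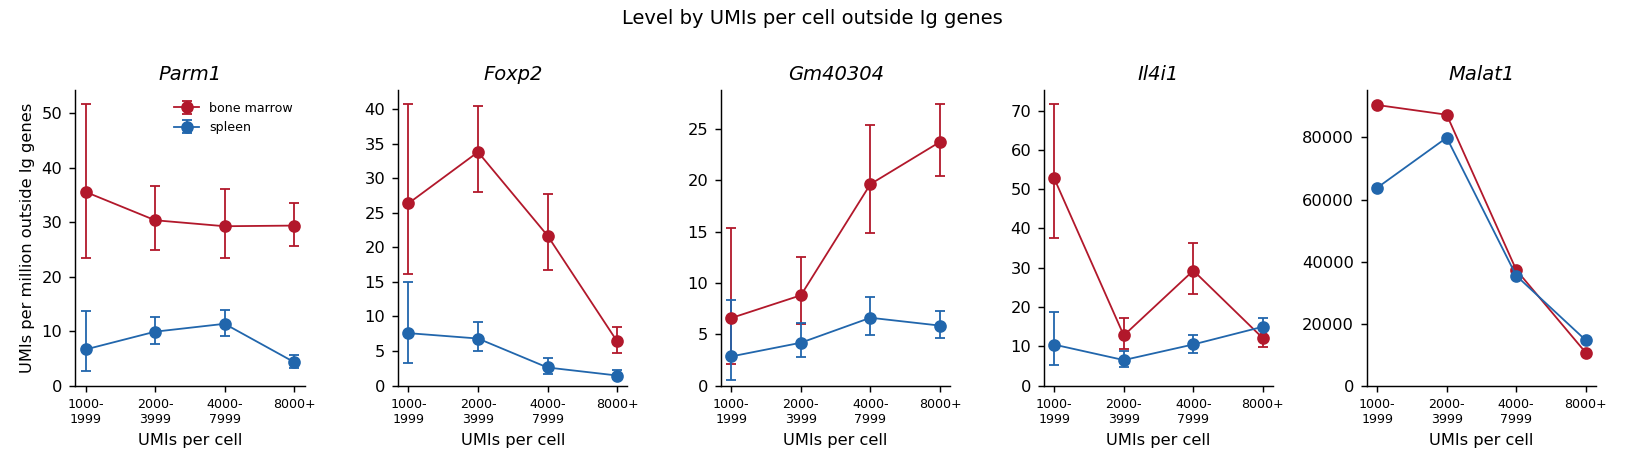
Level of each gene and of Malat1 in CPM outside immunoglobulin genes (vertical axes, linear, from 0) by the UMIs of a cell outside those genes (horizontal axis, 4 ranges), both sexes summed, in bone marrow (red) and spleen (blue). Bars are exact Poisson 95% intervals. In bone marrow Foxp2 goes from 33.8 to 6.42 while Gm40304 goes from 8.80 to 23.7 between the range from 2000 UMIs and that from 8000.

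Cells near the light-chain threshold showed the same contrast between these 2 genes. In bone marrow, Foxp2 was at 37.2 CPM in 424 cells just inside it (shares of 50% to 60%) and 24.2 CPM in 412 just outside (40% to 50%), against 10.5 CPM in 1513 cells with a share of 80% or more. Gm40304 was at 8.46, 8.70 and 23.0 CPM and Parm1 at 32.1, 18.4 and 31.8 CPM in the same groups. In spleen, Il4i1 was at 20.9 CPM just inside and 31.5 CPM just outside.

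Levels also differed by antibody class. IgA cells had almost none of the 4 transcripts: 320 non-cycling IgA cells with 1329105 UMIs outside immunoglobulin genes held 3 of Parm1, 2 of Foxp2, 4 of Gm40304 and 2 of Il4i1. At the rates of the IgM cells of the same libraries, 28.3, 13.3, 18.5 and 27.3 UMIs would have been counted. Parm1 was present in IgG cells while Foxp2 and Gm40304 were nearly absent from them, with 59, 4 and 5 UMIs in 604 cells against 40.4, 19.3 and 29.3 at the IgM rates.

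Parm1 in non-cycling IgM cells was at 63.5 and 21.6 CPM in thymus, 45.1 and 30.4 CPM in bone marrow and 7.72 and 12.1 CPM in spleen. In IgA cells of the same libraries it was at 3.28 CPM in female bone marrow, 2.98 CPM in female spleen and 0 in the other 4. A count of 0 allows up to 19.6 CPM in male bone marrow, under its IgM level, but 33.0 CPM in male spleen, 103 in female thymus and 37.9 in male thymus, above theirs, so those 3 libraries could not show a difference on their own. Counts summed by library and class, with the library as a block and classes of at least 20 cells (16 sums), gave a log2 difference of IgA minus IgM of -3.08 (SE 0.64, edgeR quasi-likelihood test with Benjamini-Hochberg adjustment over 7440 genes, adjusted p = 0.00074). IgA minus IgG was -3.48 (SE 0.68, adjusted p = 0.00026). Both stayed called in the 17 alternatives that gave a value (with cells thinned, Parm1 did not pass the filter), with differences of -4.44 to -2.61 and -4.89 to -2.84 and adjusted p of at most 0.0274 and 0.0077. Non-cycling IgM and IgG cells held 424 and 59 UMIs of Parm1 against 3 in IgA cells, so those sums carried it past the filter. That the calls stayed is therefore no support separate from the main fit. Of the 2 members that passed the filter on low counts, 1 was called lower in IgA than in IgM, where 8.92% of all genes tested were called and 5.22% were called lower. Against IgG, 8.63% of genes were called and 5.22% were called lower in IgA.

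IgG minus IgM for Parm1 was 0.41 (SE 0.28, adjusted p = 0.42), which ranged from -0.12 without female spleen to 1.02 (adjusted p = 0.035) when the top heavy gene had to hold 80% of heavy constant UMIs. Neither of the 2 members tested was called for IgG minus IgM by edgeR, none passed an unadjusted p of 0.05 and DESeq2 called none, where edgeR called 11.7% of all genes. By heavy constant gene, Parm1 was at 26.0 CPM in 267 Ighg2b cells, 21.3 in 205 Ighg2c cells and 14.0 in 88 Ighg3 cells, and at 0 UMIs in 44 Ighg1 cells, which allows up to 14.3 CPM. These levels pool libraries, and 361 and 100 of the 604 IgG cells came from female and male spleen, where IgG stood at 18.1 and 14.7 CPM against 7.72 and 12.1 CPM in IgM. Parm1 was lower in IgG than in IgM in 1 of 6 libraries, female bone marrow.

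Foxp2 and Gm40304 did not pass the filter on low counts for these sums and were tested without it. There the log2 difference of Foxp2 from IgM was -3.67 for IgA (SE 0.87, edgeR, adjusted p = 0.0013) and -2.27 for IgG (SE 0.57, adjusted p = 0.0025). Gm40304 gave -2.27 for IgA (SE 0.58, adjusted p = 0.0033) and -2.57 for IgG (SE 0.50, adjusted p = 2.0e-05). Some alternatives let them pass the filter. Non-cycling IgM cells held 241 and 313 UMIs of Foxp2 and Gm40304, against 2 and 4 in IgA and 4 and 5 in IgG cells. Their IgM sums thus carried them past the filter, so calls there are no support separate from the unfiltered fit. Foxp2 passed in 2 and was called for both classes in each (edgeR, adjusted p of at most 0.016). Gm40304 passed in 7 and was called for IgG in all 7, but for IgA in 4, the call being lost without female bone marrow (adjusted p = 0.055), without male bone marrow (adjusted p = 0.066) and at a light-chain share of 80% (adjusted p = 0.16). Without the filter, 3.79% of 16237 genes were called lower in IgA and 3.51% in IgG. Foxp2 UMIs in IgA cells were 1 in each thymus library and 0 in the other 4. In IgG cells of male bone marrow 2 UMIs made 12.0 CPM, so single molecules set these levels.

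Il4i1 by class rested on few cells. Its IgA minus IgM difference was -3.48 (SE 1.34, adjusted p = 0.096) and its IgA minus IgG difference -4.05 (SE 1.35, adjusted p = 0.049), which DESeq2 (adjusted p = 0.90) and 8 other alternatives did not call. Of 76 Il4i1 UMIs in IgG cells, 72 came from 1 Ighg3 cell of male spleen. Without that cell Il4i1 did not pass the filter, so nothing is read from its IgA minus IgG call. Leaving out the 6% of cells with the most UMIs turned IgG minus IgM from 0.57 (SE 0.49, adjusted p = 0.55) to -3.35 (adjusted p = 3.7e-06).

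**Figure D4:**
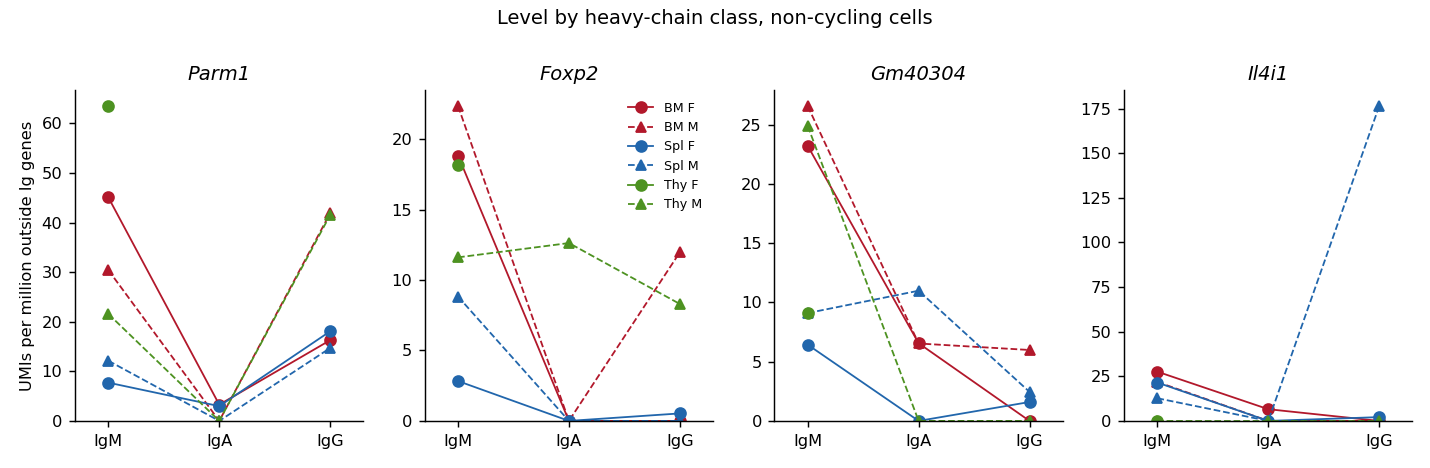
Level of each gene in CPM outside immunoglobulin genes (vertical axes, linear, from 0) in non-cycling IgM, IgA and IgG cells, with 1 line per library (solid with circles for females, dashed with triangles for males) and classes under 20 cells left out. Parm1 falls from IgM to IgA in the 5 libraries drawn and stands at 14.7 to 41.9 in IgG. The single high IgG point of Il4i1, 176, is male spleen.

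All 4 members were lower in CPM in cycling cells, those with at least 1 UMI of Mki67 or Top2a. Parm1 was at 24.1 and 23.7 CPM in cycling against 39.7 and 29.9 CPM in non-cycling cells of bone marrow. In spleen it was at 5.48 and 3.95 against 9.28 and 12.1 CPM, and in thymus at 43.8 and 7.76 against 57.7 and 22.4 CPM. Parm1, Foxp2 and Gm40304 were lower in cycling cells in 6 of 6 libraries, and Il4i1 in the 4 where it was found. With the library as a block, the log2 difference of cycling minus non-cycling was -0.76 (SE 0.14, adjusted p = 0.00012) for Parm1, -0.66 (SE 0.17, adjusted p = 0.0047) for Foxp2, -0.83 (SE 0.18, adjusted p = 0.00092) for Gm40304 and -1.88 (SE 0.26, adjusted p = 2.6e-06) for Il4i1 by edgeR.

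Thus 4 of 4 members were called lower, where 23.9% of 10768 genes were called and 9.79% were called lower. DESeq2 called 3 of the 4, with an adjusted p of 0.051 for Il4i1, and edgeR lost the call of Foxp2 without male bone marrow (adjusted p = 0.062). The size for Il4i1 rests on few cells: 10 of the 13 cells with at least 10 of its UMIs were non-cycling, and 1 cell held 77.4% of its non-cycling UMIs in female bone marrow and 61.0% in male spleen. Without these 13 cells, an alternative chosen after seeing the data, the difference was -0.92 (SE 0.22, edgeR, adjusted p = 0.0025), with 1.85 and 6.87 CPM in cycling against 5.40 and 10.9 CPM in non-cycling cells of bone marrow and 4.02 and 2.37 against 6.11 and 8.03 CPM in spleen. Cells with an Il4i1 UMI were 1.52% of cycling and 1.90% of non-cycling cells. In IgM cells alone, a split chosen after seeing the data, the differences were -0.66, -0.62, -0.82 and -1.74, all called. Cycling cells were deeper, with medians of 2074 to 5629 UMIs against 1991 to 3687. Per 100 cells, summed over the 6 libraries without the block, the 4 genes had 6.60, 3.41, 4.17 and 3.47 UMIs in cycling cells. In non-cycling cells they had 8.97, 4.55, 5.93 and 9.06 UMIs. Spleen gave 2245 of the 3287 cycling and 3172 of the 5428 non-cycling cells. Within libraries, UMIs per cell were lower in cycling cells in 6 of 6 for Parm1 and 5 of 6 for Foxp2 and Gm40304. Il4i1 was lower per cell in the 4 libraries where it was found. In female spleen Foxp2 had 1.27 UMIs per 100 cycling against 1.11 per 100 non-cycling cells, and Gm40304 3.605 against 2.56. Thinned to 1000 UMIs a cell, the difference for Parm1 was -0.25 (adjusted p = 0.80), for Foxp2 -0.35 (adjusted p = 0.75) and for Il4i1 -0.91 (adjusted p = 0.060), and Gm40304 did not pass the filter. What part depth has in the unthinned differences was not tested further.

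**Figure D5:**
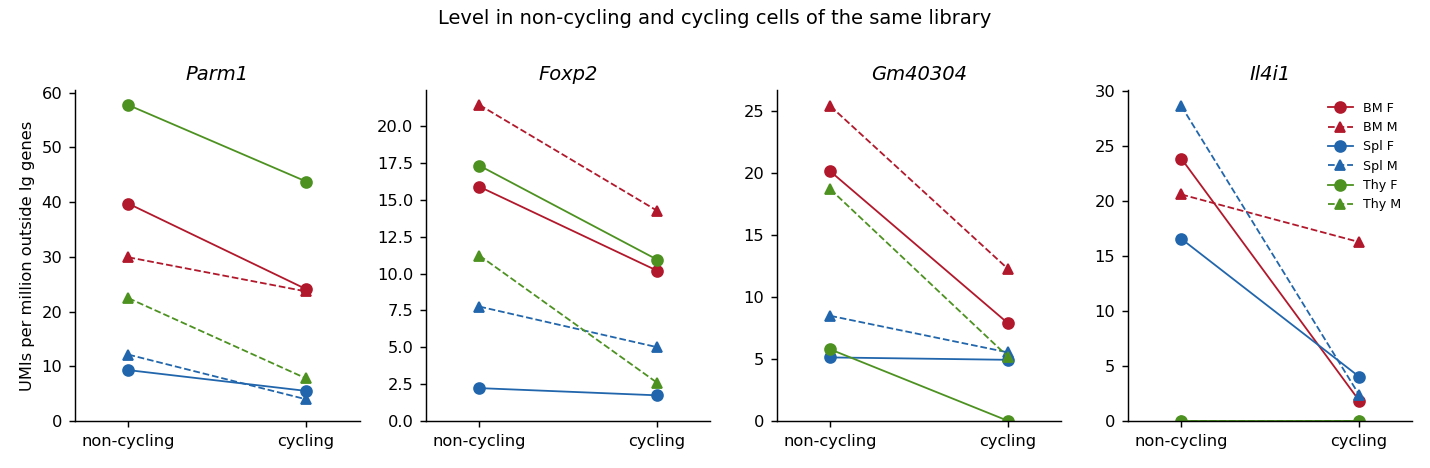
Level of each gene in CPM outside immunoglobulin genes (vertical axes, linear, from 0) in non-cycling and cycling cells, joined within each library (solid with circles for females, dashed with triangles for males, bone marrow red, spleen blue, thymus green). Lines for Parm1, Foxp2 and Gm40304 fall in all 6 libraries, and those for Il4i1 fall in 4 and stay at 0 in thymus.

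No member was called between the sexes. With edgeR the log2 difference of male minus female was -0.51 (SE 0.25, adjusted p = 0.49) for Parm1, 0.63 (SE 0.30, adjusted p = 0.48) for Foxp2, 0.28 (SE 0.26, adjusted p = 0.75) for Gm40304 and 0.22 (SE 0.25, adjusted p = 0.80) for Il4i1. Called members were 0 of 4, with 2 at an unadjusted p under 0.05 and 0 by DESeq2, where edgeR called 0.427% of 11239 genes. Each sex and tissue had 1 library, so the p-values measure the spread between tissue libraries of 3 pooled mice after the additive terms. The male to female ratio of Foxp2 was 1.36 (1.04 to 1.81) in bone marrow, 3.26 (2.13 to 5.03) in spleen and, from 4 and 10 UMIs, 0.56 (0.16 to 2.43) in thymus. That of Parm1 was 0.82 (0.67 to 0.99), 1.12 (0.82 to 1.504) and 0.33 (0.16 to 0.71).

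The pathways around the members were read from fixed gene lists, without the members themselves. Of the 67 list genes tested between tissues, edgeR called 0 between spleen and bone marrow (5 at an unadjusted p under 0.05, 0 by DESeq2) and 0 between thymus and bone marrow (8 and 0). Between thymus and spleen it called 1 (6 and 0), the plasma cell gene Epcam, at -1.47 (SE 0.36, edgeR, adjusted p = 0.048). Of all genes 0.436%, 0.765% and 0.632% were called in these contrasts, so counts of 0 or 1 of 67 do not set the lists apart. Foxp1, the family member of B cells, was at 104 and 123 CPM in bone marrow and 114 and 171 CPM in spleen, a log2 difference of 0.32 (SE 0.30, edgeR, adjusted p = 0.9999), and Foxp4 at 10.7 and 19.4 CPM against 9.82 and 23.8 CPM. Foxp3 did not pass the filter. In cycling minus non-cycling cells Foxp1 was at -0.22 (SE 0.07, adjusted p = 0.020). Of 10 other forkhead genes 1 was called there, where 23.9% of all genes were, Foxm1, a regulator of mitosis genes, at 3.39 (SE 0.31), and of the steroid receptors 3 passed the filter and 0 were called (0 at an unadjusted p under 0.05, 0 by DESeq2).

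Among 8 interleukin-4 signalling genes tested, 4 were lower in cycling cells and 0 higher, where 9.79% of all genes were lower. They were the receptor chains Il13ra1 (-0.60, SE 0.08) and Il2rg (-0.44, SE 0.07), the transcription factor Stat6 (-0.35, SE 0.12) and the kinase Jak1 (-0.24, SE 0.07), with a list median of -0.13 against -0.02 over all genes, and DESeq2 called 2 of the 8. By class 1 of 6 was lower in IgA (5.22% of all genes) and 2 of 6 in IgG (6.12%), and 0 were higher. Il13ra1 was lower in IgA (-1.23, SE 0.20) and IgG (-1.27, SE 0.17) than in IgM cells, and Il2rg was lower in IgG (-1.20, SE 0.12). Among enzymes of amino acid oxidation, the aminotransferases Got1 (0.35, SE 0.08), Got2 (0.49, SE 0.07) and Kyat3 (0.62, SE 0.22) were higher in cycling cells, 3 of 7 tested, where 14.1% of all genes were higher. The list median went the other way, at -0.14 against -0.02 over all genes, and DESeq2 called 2 of the 7. Haao, of the tryptophan to NAD route, was lower in IgA (-1.12, SE 0.33) and IgG (-0.87, SE 0.25), in each class 1 of 5 tested. Of all genes 5.22% and 6.12% were lower there, and DESeq2 called 0 of the 5 in either class. The list medians were -0.01 in IgA and 0.27 in IgG. For the aryl hydrocarbon receptor list, 0 of 6 were called in cycling cells, where 23.9% of all genes were (0 at an unadjusted p under 0.05, 0 by DESeq2), and in IgG 1 of 6 was, where 11.7% of all genes were, the chaperone Hsp90ab1 (-0.50, SE 0.11).

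Membrane mucins other than Parm1 were read by class too. In IgG cells 4 of 5 tested were higher than in IgM (1 by DESeq2), where 5.63% of all genes were higher, with a list median of 0.36 against 0.01 over all genes, Spn (CD43) at 0.91 (SE 0.14) and Cd52 at 0.41 (SE 0.14), and in IgA cells 1 of 5, Selplg, was higher at 0.57 (SE 0.12) and 0 were lower. Plasma cell genes were lower in cycling cells in 9 of 15, among them the survival genes Bcl2 (-0.65, SE 0.07) and Tnfrsf17 (-0.39, SE 0.07), with a list median of -0.25, while 6 of 10 B cell genes were higher and 1 lower, against 9.79% of all genes lower and 14.1% higher, with Cxcr3 at 0.96 (SE 0.11) and H2-Eb1 at 0.63 (SE 0.08). In IgA against IgM cells 6 of 15 plasma cell genes were higher, such as Cd28 (0.80, SE 0.13), and 5 lower, such as Cxcr4 (-1.40, SE 0.33) and Cd9 (-0.94, SE 0.21), where 3.71% of all genes were higher and 5.22% lower. Of 9 B cell genes 1 was higher there, Klf2 (2.53, SE 0.31), and 2 were lower, Ms4a1 (-1.48, SE 0.24) and Cd74 (-0.46, SE 0.13). In IgG cells 2 of 15 plasma cell genes were lower, Bcl2 (-2.06, SE 0.16) and Tnfrsf17 (-1.86, SE 0.17), and 2 higher, Epcam (0.63, SE 0.12) and Xbp1 (0.39, SE 0.11), where 6.12% of all genes were lower and 5.63% higher. Of 9 B cell genes 5 were higher in IgG, led by Cxcr3 (2.42, SE 0.14), and 0 were lower.

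Genes with the most similar pattern were found over 15 sums of at least 50 cells (the non-cycling cells of each class and the cycling cells, per library), by Pearson correlation of log2(CPM + 1) among 7779 genes. The sums share libraries and mice, so the values are descriptions. Foxp2 and Gm40304 lay under the floor of a mean of 10 CPM that these genes had to pass, and were compared with them all the same. For Foxp2 they were Gas7 (r = 0.95), Stom (0.95) and the integrin chain Itgav (0.94), and for Gm40304 Krt222 (0.92), B3galt6 (0.90) and Itgav (0.89). For Parm1 they were Adk (0.76), Mpp1 (0.75) and Coa5 (0.75), and for Il4i1 Tmem203 (0.81), Mtfr1l (0.81) and Thap3 (0.80). Between members, Foxp2 and Gm40304 had r = 0.86, Parm1 and Foxp2 0.62, Parm1 and Gm40304 0.49, and Il4i1 0.18 to 0.35 with the others. The values of Il4i1 rest on few cells. In the sum of male spleen IgG cells, 1 cell held its 72 UMIs. In that of female bone marrow IgM cells, 1 held 65 of 82. In cells thinned to 1000 UMIs, 3 held both Parm1 and Foxp2 where 2.29 would meet by their shares in each library, and 1 held both Foxp2 and Gm40304 where 1.19 would, counts too small to read.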

How the data were processed

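Single-cell RNA libraries of sorted ASCs were analysed, 1 per sex and tissue, from pools of 3 mice. The values are UMI counts per gene and barcode, deposited by the authors as filtered and raw matrices of whole numbers. The headers of the filtered matrices name Cell Ranger 6.0.2 and those of the raw matrices Cell Ranger 4, and the submitters' processing notes name mm10 and GRCm38. Whether counting used the strand is not given in the sources used here. The members, the gene lists and the tests were chosen with earlier results of these data known.

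Counts of the 395 genes starting Igh, Igk or Igl were left out of totals. Cells were kept at 1000 UMIs and a leading light-chain V share of 50%. No doublet caller was run, and leaving out the 6% of cells with the most UMIs was an alternative. Antibody class was the top heavy constant gene. Counts were summed per library, or per library and state with at least 20 cells, and tested with edgeR 4.0.16 (TMM, filterByExpr, glmQLFit and glmQLFTest, R 4.3.3, Benjamini-Hochberg at 0.05), with sex and tissue, or library and state, as terms. DESeq2 1.42.0 was an alternative. Tested on simulated data in which 200 genes had a log2 change of 2, the fits recovered 88.5% (IgA minus IgM, 6747 genes) to 100% (cycling, 10506 genes), with 5 to 9 false calls. With 1 library per sex and tissue, p-values measure only the spread between these libraries, which may be technical. Thinning drew 1000 UMIs per cell with seed 1.

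Named genes are the 4 members, per list up to 4 called genes of largest change or else the 2 most abundant (not all are printed), and per member the 3 most similar genes. The antigen receptor libraries were not used, because labels and shared barcodes paired them with different expression libraries, so that the comparison of expanded with single clones was not run. In the expression libraries, Xist was at 672 to 1629 CPM in those labelled female against 0.65 to 1.68 in those labelled male, and Ddx3y at 60.2 to 84.1 CPM in males against at most 0.047 in females.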

Additional observations from a re-analysis of the deposited data

Results flagged for a closer look

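For 2 of the genes the male to female ratio pointed in different directions in different tissues, with 1 library for each sex and tissue, and this difference was not tested. The log2 ratio of male to female CPM of Parm1 was -0.29 in bone marrow, 0.16 in spleen and -1.58 in thymus. The log2 ratio of Foxp2 was 0.45 in bone marrow, 1.71 in spleen and -0.85 in thymus, the last from 4 and 10 UMIs.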

How the results depend on the processing

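Differences are log2 values. For spleen minus bone marrow all 4 members kept their sign in the alternatives that gave them a value, 17 for Parm1 and 16 for each of the others, with Il4i1 from -1.22 to -0.03. Fits in non-cycling IgA or IgG cells alone gave the members no value. All 4 also kept their sign for cycling minus non-cycling where they had a value. Calls on cycling were lost for Parm1, Foxp2 and Il4i1 with cells thinned (which left Gm40304 under the filter), for Foxp2 at a light-chain share of 80% (adjusted p = 0.066) and without male bone marrow (0.062), and for Il4i1 with DESeq2 (0.051). The cause of changes below was not tested unless cells or genes were left out.

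The numbers of genes called depended strongly on single libraries and settings. For spleen minus bone marrow, 49 genes became 8 with DESeq2, 103 with no filter on low counts, 15 at a light-chain share of 80%, 82 at a minimum of 2000 UMIs, 17 with free RNA subtracted, 18 without the 6% of cells with the most UMIs, 4 with sums thinned, and 8 and 3 in non-cycling IgA and IgG cells. For thymus minus bone marrow, 86 became 57 with DESeq2, 131 with no filter, 52 at the 80% share, 51 without the 6%, 30 with sums thinned, and 23 and 16 in IgA and IgG cells. For thymus minus spleen, 71 became 119 with no filter, 40 at the 80% share, 41 with free RNA subtracted, 29 without the 6%, 21 with sums thinned, and 6 and 24 in IgA and IgG cells. For male minus female, 48 became 10 with DESeq2, 101 with no filter, 20 at the 80% share, 117 at 2000 UMIs, 19 with free RNA subtracted, 19 without the 6%, 7 with sums thinned and 7 in IgG cells.

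For cycling minus non-cycling, 2576 became 1596 with DESeq2, 1607 at the 80% share, 413 with cells thinned and 3902 when cycling needed 2 UMIs. For IgA minus IgM, 664 became 370 at the 80% share, 281 with cells thinned and 281 when the top heavy gene had to hold 80%. For IgG minus IgM, 874 became 582 with DESeq2 and 329 with cells thinned. For IgA minus IgG, 642 became 381 at the 80% share and 222 with cells thinned.

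Leaving out 1 library at a time gave 11 (without female bone marrow) to 158 genes (without either thymus library) for spleen minus bone marrow, 16 (without male bone marrow) to 353 (without female spleen) for thymus minus bone marrow, 33 (without female bone marrow) to 934 (without male spleen) for thymus minus spleen, and 10 (without either bone marrow library) to 205 (without male thymus) for male minus female. It gave 1588 to 2745 for cycling, 375 to 666 for IgA minus IgM, 382 to 909 for IgG minus IgM and 260 to 649 for IgA minus IgG, each lowest without female spleen.

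At the 80% light-chain share, Foxp2 was at 8.66 and 11.7 CPM in bone marrow, 3.81 in male spleen and 1.27 in male thymus, Gm40304 at 25.9 in male bone marrow and 12.6 in male spleen, and Il4i1 at 19.7 in female bone marrow and 13.1 and 7.03 in spleen. At 2000 UMIs Il4i1 was at 15.3 CPM in male bone marrow.

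Without male thymus, thymus minus bone marrow of Parm1 was 0.29 (range -0.87 to 0.29) and thymus minus spleen of Gm40304 was -0.91 (range -0.91 to 0.89). Without female spleen, IgG minus IgM of Parm1 was -0.12 (range -0.12 to 0.82). Male minus female of Il4i1 was -0.65 at the 80% share, -0.16 without the 6% and -0.75 in non-cycling IgM cells. IgG minus IgM of Il4i1 was -2.02 with DESeq2, -3.58 at the 80% share and -3.35 without the 6%, which also turned its IgA minus IgG difference to 0.10.

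Leaving out the male spleen IgG cell with 72 Il4i1 UMIs, chosen after seeing the data, put Il4i1 under the filter for class. No further pairing was possible, because each sex and tissue had 1 library and the labels give no replicate numbers to pair libraries by. Sex was already a term in the tissue fits, and the cycling and class fits already compared states within each library. Depth limits thymus most, where 1 to 21 UMIs stand behind each level above 0.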
